A study of Mus musculus with 12 samples.

Results

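The NADPH oxidase is described here through 7 subunit genes, Ncf1, Ncf4, Cyba, Cybb, Nox4, Rac1 and Rac2, of 45792 genes measured in mouse neural stem cells (NSCs). The genes were chosen by name, with earlier results of these data known, and each was found once in the deposited tables. Libraries came from primary forebrain NSCs of newborn pups, 4 from WT pups, 4 from Ncf1-/- pups given vehicle and 4 from Ncf1-/- pups given recombinant mouse Igfbp2 for 48 h, beginning 48 h after plating. The labels call the vehicle cultures untreated, and the dose was 100 ng/ml by the labels but 60 ng/ml by the methods. By the methods each culture held the cells of 1 pup, grown without serum with EGF and FGF and used at an early passage, and vehicle and Igfbp2 cultures were paired by animal. Both treated groups carry the Ncf1-/- genotype, from mice backcrossed to C57BL/6J, and no WT culture received Igfbp2.

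The NADPH oxidases pass electrons from NADPH across a membrane to oxygen and so make reactive oxygen species. The phagocyte enzyme has a membrane core of Cybb (gp91phox, also called Nox2) and Cyba (p22phox), which is switched on when the cytosolic organiser Ncf1 (p47phox), the accessory protein Ncf4 (p40phox) and a GTP-loaded Rac protein join it. Nox4 pairs with Cyba and is known for making hydrogen peroxide without the cytosolic subunits. Rac1 is found in most cell types and has many other partners, whereas Rac2 is best known from blood cells.

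Expected counts summed to between 18201622 and 34086554 per library, so that a floor of 3 counts stood for 0.0860 to 0.180 CPM (the count as a share of its library, scaled by TMM factors so that 1 count was worth 0.0287 to 0.0601 CPM). WT replicate 3 was the deepest library and lay nearer to the Ncf1-/- libraries than the other WT libraries did for many of the genes below. A sample sheet in the study's code that the code itself does not read lists WT replicate 4 under apocynin, an oxidase inhibitor, while the labels give it as untreated. Uty, Kdm5d, Eif2s3y and Ddx3y, which are Y-linked, summed to 105 to 116 CPM in vehicle-treated Ncf1-/- libraries and to 7.79 to 9.15 CPM in Igfbp2-treated ones, although the cultures were said to be paired by animal. In WT the sum was 6.47 CPM in replicate 4 and 107 to 118 CPM in the others, and Xist was at 291 CPM in replicate 4 against at most 5.21 CPM in the others. Xist was at 72.3 to 87.8 CPM with vehicle, in the same libraries as the high Y-linked sums, and at 166 to 275 CPM with Igfbp2. Every difference between Igfbp2 and vehicle below moved with these sex-linked genes, and the treatment and the sex of the cells cannot be told apart there. Igfbp2-treated Ncf1-/- libraries differed from WT in genotype and treatment together, and in the sex-linked genes from all WT libraries but replicate 4. Genotype, treatment and sex cannot be told apart in that comparison either. The vimentin gene Vim led the NSC markers at 626 to 4569 CPM in WT, highest in replicate 3, and at 3835 to 4311 CPM in Ncf1-/- libraries. Of the 12 NSC markers tested by edgeR, 4 were called higher and 7 lower with vehicle than in WT (median log2 fold change −0.36). Over all genes tested 28.9% were called higher and 28.2% lower. Igfbp2-treated cells also had 4 higher and 7 lower than WT (median −0.41), beside 31.6% higher and 30.8% lower over all genes.

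The 5′ ends of 4 subunit genes are printed to set the phagocyte genes Cybb and Ncf1 beside Cyba and Nox4, which had more counts. Rac1, Rac2 and Ncf4 had no entry. Each sequence is from RefSeq on GRCm38.p6 and runs from 250 bases before the RefSeq gene start to 50 bases after it, on the strand of the gene. The gene spans given further below are from GENCODE, whose starts differ from these for Cybb, Cyba and Nox4. Capitals mark GAGGAA, the core read by PU.1 and other ETS factors, and GGGCGG, the GC box, on either strand, and no motifs overlapped.
Ncf1 (chr5:134229576-134229875, minus strand): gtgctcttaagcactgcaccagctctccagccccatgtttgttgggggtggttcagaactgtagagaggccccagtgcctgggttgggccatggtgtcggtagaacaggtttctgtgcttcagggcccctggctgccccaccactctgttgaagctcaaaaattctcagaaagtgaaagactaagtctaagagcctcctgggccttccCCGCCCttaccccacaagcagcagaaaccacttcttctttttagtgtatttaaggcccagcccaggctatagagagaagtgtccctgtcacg
Cybb (chrX:9469275-9469574, minus strand): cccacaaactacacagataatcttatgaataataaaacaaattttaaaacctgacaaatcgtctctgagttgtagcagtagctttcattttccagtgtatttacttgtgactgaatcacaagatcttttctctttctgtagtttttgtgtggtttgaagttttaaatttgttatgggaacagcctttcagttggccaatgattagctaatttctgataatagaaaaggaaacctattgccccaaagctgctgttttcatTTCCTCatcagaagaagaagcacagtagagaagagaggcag
Cyba (chr8:122432891-122433190, minus strand): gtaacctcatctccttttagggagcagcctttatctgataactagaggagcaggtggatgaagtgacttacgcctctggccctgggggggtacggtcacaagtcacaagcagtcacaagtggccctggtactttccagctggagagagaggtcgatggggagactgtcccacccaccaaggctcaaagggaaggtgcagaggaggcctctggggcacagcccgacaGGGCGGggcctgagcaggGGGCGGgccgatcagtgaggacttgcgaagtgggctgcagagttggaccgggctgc
Nox4 (chr7:87246399-87246698, plus strand): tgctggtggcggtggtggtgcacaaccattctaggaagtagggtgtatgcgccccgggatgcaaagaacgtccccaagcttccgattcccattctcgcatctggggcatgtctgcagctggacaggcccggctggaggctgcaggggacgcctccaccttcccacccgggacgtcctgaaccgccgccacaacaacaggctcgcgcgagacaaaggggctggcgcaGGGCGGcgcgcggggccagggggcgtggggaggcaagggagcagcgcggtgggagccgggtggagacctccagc
The Cybb window held 1 GAGGAA and no GC box, and had a GC content of 35.3%. The other windows had a GC content of 54.0% for Ncf1, 60.7% for Cyba and 68.3% for Nox4, and they held 1, 2 and 1 GC boxes and no GAGGAA. Of 32851 promoter windows of this length, 28.3% held GAGGAA and 35.7% held GGGCGG. Spi1, the gene for PU.1, had at most 1 count in any library.

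Of the 7 subunits, Rac1 was by far the most abundant, Nox4 was low, and the other 5 were at or near the limit of detection in every group. Levels are compared between genes in length-scaled transcript shares (TPM), which RSEM scales by gene length. Rac1 was at 191 ± 18.6 TPM in WT (SD, n = 4), 147 ± 27.1 TPM in vehicle-treated and 120 ± 16.7 TPM in Igfbp2-treated Ncf1-/- cells, and 98.2% of the 15706 genes tested had a lower mean in WT. Nox4 was at 0.880 ± 0.106, 1.02 ± 0.341 and 0.472 ± 0.159 TPM in the same order of groups. Rac1 thus exceeded Nox4 by 217 times in WT, 144 times with vehicle and 253 times with Igfbp2, as ratios of mean TPM.
Cyba followed at 0.210 ± 0.203, 0.455 ± 0.117 and 0.430 ± 0.190 TPM. Ncf1 was at 0.0700 ± 0.0383, 0.0800 ± 0.0216 and 0.0325 ± 0.0263 TPM, and Rac2 at 0.02 ± 0.0163, 0.0350 ± 0.0173 and 0.0350 ± 0.0238 TPM. Ncf4 was listed above 0 in 2 of the 12 libraries and Cybb was at 0 TPM in all of them. Rac1 lay above every other subunit in every library. Nox4 lay above Cyba in all WT libraries, but Cyba was the higher in vehicle replicate 3 (0.60 against 0.56 TPM) and in Igfbp2 replicates 2 (0.67 against 0.61 TPM) and 4 (0.45 against 0.25 TPM). The ranges of Ncf1 and Rac2 overlapped in WT and in Igfbp2-treated cells. The plot of TPM by library shows these levels.

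**Figure D1:**
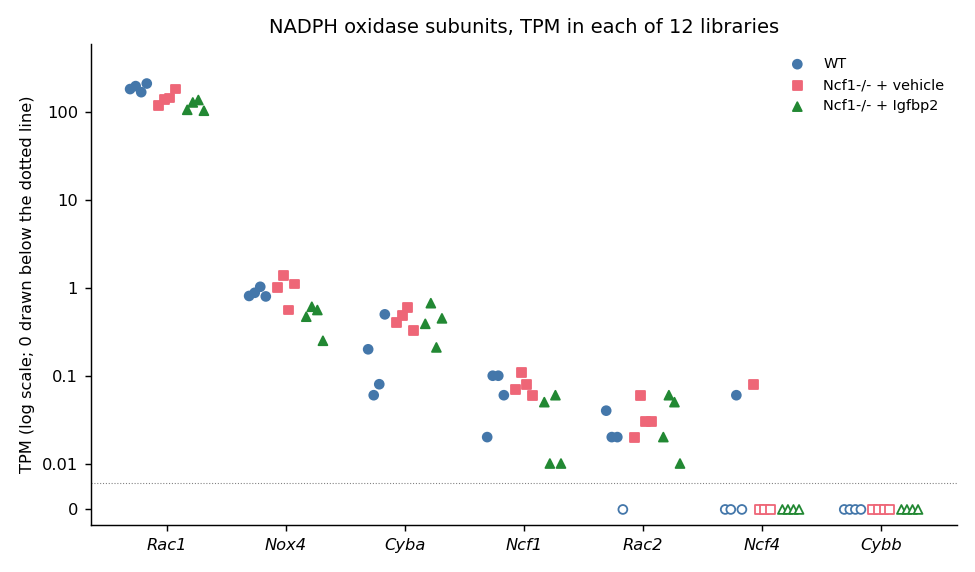
TPM of each subunit (x axis) in each of 12 libraries on a log scale, coloured by group, with values of 0 drawn as open symbols below the dotted line. Rac1 lies between 104 and 213 TPM, Nox4 between 0.25 and 1.38 TPM, and Cybb at 0 in all libraries.

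Ncf1, the gene removed in the mutant (chr5:134220053-134229625, minus strand, 7 annotated transcripts), was barely detected in any group, WT included. In WT replicates 1 to 4 its expected counts were 2, 3, 7 and 3.76, in vehicle-treated Ncf1-/- libraries 4.39, 4, 2 and 2, and in Igfbp2-treated ones 1, 1, 1 and 1. The WT and vehicle libraries overlapped, and the mean was 0.166 ± 0.0540 CPM in WT against 0.137 ± 0.0643 CPM with vehicle (exact permutation test, two-sided, p = 0.486). These counts cannot check the genotype labels at this depth. The annotation places Ncf1 next to Gtf2ird2, a gene on the opposite strand whose body overlaps that of Ncf1 by 4303 bases. Of the 3663 exonic bases of Ncf1, 408 lie in exons of Gtf2ird2, and whether the counting used strand is not given in the sources used here, so the few counts may belong to either gene.
All 4 Igfbp2-treated libraries lay below all vehicle and all WT libraries for Ncf1, at 0.0531 ± 0.00572 CPM. The exact permutation p of 0.0286 in each of these comparisons is the smallest that 4 against 4 libraries can give, it is not adjusted over the 14 such tests of the untested subunits, and the libraries of 34% of the genes tested were as fully separated between Igfbp2 and vehicle and those of 54.4% between Igfbp2 and WT. The summed counts of 4 with Igfbp2 and 12 with vehicle gave a ratio, scaled by depth, of 0.408, with an exact interval of 0.0960 to 1.35 that covers counting error only. Against the 16 counts of WT the ratio was 0.307 (0.0747 to 0.952).

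The membrane subunits of the phagocyte enzyme were nearly absent. Cybb (chrX:9435252-9487771, minus strand), the catalytic subunit Nox2, had 1 count in Igfbp2 replicate 4 and 0 in the other 11 libraries. In the WT libraries together, 0 counts allow a level of up to 0.0321 CPM. Cyba (chr8:122424776-122432930, minus strand), the partner that stabilises Cybb and Nox4, had 4, 1, 2 and 7 counts in WT replicates 1 to 4. It had 8, 8, 11 and 6 counts with vehicle and 9, 11, 4 and 12 counts with Igfbp2. WT replicate 4 reached the range of the mutants, and the other WT libraries lay below all vehicle libraries. The Cyba mean was 0.171 ± 0.158 CPM in WT and 0.361 ± 0.108 CPM with vehicle (exact permutation test, two-sided, p = 0.114), and 0.485 ± 0.207 CPM with Igfbp2 (p = 0.0571 against WT by the same exact test, and p = 0.343 against vehicle). From summed counts alone the ratio of vehicle to WT was 2.36 with an exact interval of 1.23 to 4.78, so that a difference beyond counting error did not exceed the spread between libraries. In an edgeR fit without the expression filter Cyba was called higher with Igfbp2 than in WT (log2 fold change 1.60, edgeR adjusted p = 0.0337), but not in the other comparisons of that fit or by Tukey comparisons on TPM (1.03, adjusted p = 0.491).

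The cytosolic subunit Ncf4 (chr15:78244801-78262580, plus strand) had 2 counts in vehicle replicate 1, 1 count in WT replicate 3 and 0 in the other 10 libraries. The blood-cell GTPase Rac2 (chr15:78559167-78572783, minus strand) had between 0 and 5 counts, and its values, estimated by RSEM, were not whole numbers in 8 of the 12 libraries, so that its counts are uncertain. Its level was 0.0829 ± 0.0686 CPM in WT, 0.133 ± 0.0558 CPM with vehicle and 0.169 ± 0.105 CPM with Igfbp2, with exact permutation p-values of 0.257 to 0.629 between groups. Differences of Ncf4, Cybb and Rac2 between the groups were not detectable at this depth.
Markers of phagocytes and microglia, the cells in which these subunits are usually abundant, were low as well. Of 20 such markers, 13 had at most 3 counts in every library, and C1qa, C1qb and S100a9 were at 0 throughout. The list summed to 8.68 to 14.3 CPM in WT, 14.7 to 16.5 CPM with vehicle and 10.1 to 15.9 CPM with Igfbp2, and Cd14 was its highest gene, at 0.910 to 8.003 CPM in WT and 5.98 to 10.7 CPM in the mutants. In bulk RNA, fewer cells of a type and less RNA per cell cannot be told apart.

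Rac1 (chr5:143503634-143528036, minus strand, 9.27 Mb from Ncf1), the GTPase that activates the oxidase and also remodels actin, was lower with vehicle than in WT. It was at 398, 385, 282 and 387 CPM in WT replicates 1 to 4 and at 242, 253, 274 and 303 CPM with vehicle. Vehicle replicate 4 exceeded WT replicate 3, and the other 3 WT libraries lay above all vehicle libraries. Mean Rac1 was 363 ± 54.3 CPM in WT and 268 ± 26.8 CPM with vehicle (SD, 4 libraries each). On the log2 scale vehicle minus WT came to −0.44 (95% interval −0.68 to −0.20), with an adjusted p of 0.00463 by edgeR's quasi-likelihood test. Without WT replicate 3 the change was −0.58 (edgeR adjusted p = 4.17e-05), and without WT replicate 4, the library of doubtful treatment, it was −0.44 (edgeR adjusted p = 0.00939). The Rac1 call was lost when libraries were scaled by their totals only (log2 fold change −0.25, edgeR adjusted p = 0.0596) and in Tukey comparisons on TPM, the study's own test (−0.38, adjusted p = 0.158).
Of the 2 subunits that passed the expression filter, 1 was called in this comparison, against 57.2% of all genes tested (4545 higher and 4433 lower, or 6024 and 3159 under library totals, with a shift of the median by 0.19), so the count of called subunits does not set them apart. The oligodendrocyte markers summed to 3423 CPM in WT replicate 3 and to between 7346 and 12173 CPM in the other WT libraries, and to 2148 to 2317 CPM with vehicle. WT replicate 3, the WT library lowest in Rac1, was thus also the lowest of its group in these markers, and their part in the result was not tested.

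With Igfbp2, Rac1 was at 321, 301, 298 and 314 CPM (mean 308 ± 10.7), which was within the range of the WT libraries because of WT replicate 3. Against vehicle the log2 fold change was 0.20 (95% interval −0.04 to 0.44, edgeR adjusted p = 0.199) and against WT it was −0.24 (−0.48 to 0.01, edgeR adjusted p = 0.0832), and neither was called. On the TPM scale Rac1 was not higher but lower with Igfbp2 than with vehicle (log2 fold change of mean TPM −0.30), where the median of all genes also shifted by −0.43. Without WT replicate 3, Rac1 was lower with Igfbp2 than in WT by −0.42 (edgeR adjusted p = 0.000598).

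Nox4 (chr7:87246096-87398710, plus strand, 8 annotated transcripts), the catalytic subunit that makes hydrogen peroxide, was the only Nox gene among the members above the filter. It was at 1.45, 1.49, 1.79 and 1.21 CPM in WT replicates 1 to 4, from 21.8 to 62.3 counts. With vehicle it was at 2.03, 2.31, 1.32 and 2.25 CPM, and with Igfbp2 at 1.66, 1.38, 1.1 and 0.995 CPM. Of the vehicle libraries, 3 lay above every WT library and every Igfbp2 library, and replicate 3 lay among them. The log2 fold change was 0.40 between vehicle and WT (95% interval −0.10 to 0.89, edgeR adjusted p = 0.155) and −0.24 between Igfbp2 and WT (−0.76 to 0.28, edgeR adjusted p = 0.403). Between Igfbp2 and vehicle it was −0.64 (−1.14 to −0.13), for which the edgeR adjusted p of 0.0648 missed the threshold.
In that comparison 0 of 2 tested subunits were called by edgeR against 25% of all genes (2238 higher and 1685 lower, but 648 higher and 5258 lower when libraries were scaled by their totals only, which moved the median of all genes by −0.23), 1 had an unadjusted p under 0.05, and DESeq2 called 0 and limma on log2(TPM + 1) called 1. Nox4 was not called without a filter (−0.63, edgeR adjusted p = 0.122) or by Tukey comparisons on TPM (−1.11, adjusted p = 0.119). It came past the threshold in only 4 of the 12 edgeR fits that left out 1 library. In the others it was not called, with an edgeR adjusted p of up to 0.159, without Igfbp2 replicate 4. Without vehicle replicate 3 its change was −0.83 (edgeR adjusted p = 0.0251) and without Igfbp2 replicate 1 it was −0.79 (edgeR adjusted p = 0.0466). Without WT replicate 3 (edgeR adjusted p = 0.0422) or WT replicate 4 (edgeR adjusted p = 0.0459) it was −0.68. In a fit of the Ncf1-/- libraries alone it was −0.68 (edgeR adjusted p = 0.0407), and with the replicate number as a block in that fit it was −0.67 (edgeR adjusted p = 0.0525). Against WT, 0 of the 2 subunits were called with Igfbp2 by edgeR and by DESeq2, beside 62.4% of all genes (30.8% lower), and 0 had an unadjusted p under 0.05, while limma on log2(TPM + 1) called 2 and the Tukey comparisons 1, all lower.

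**Figure D2:**
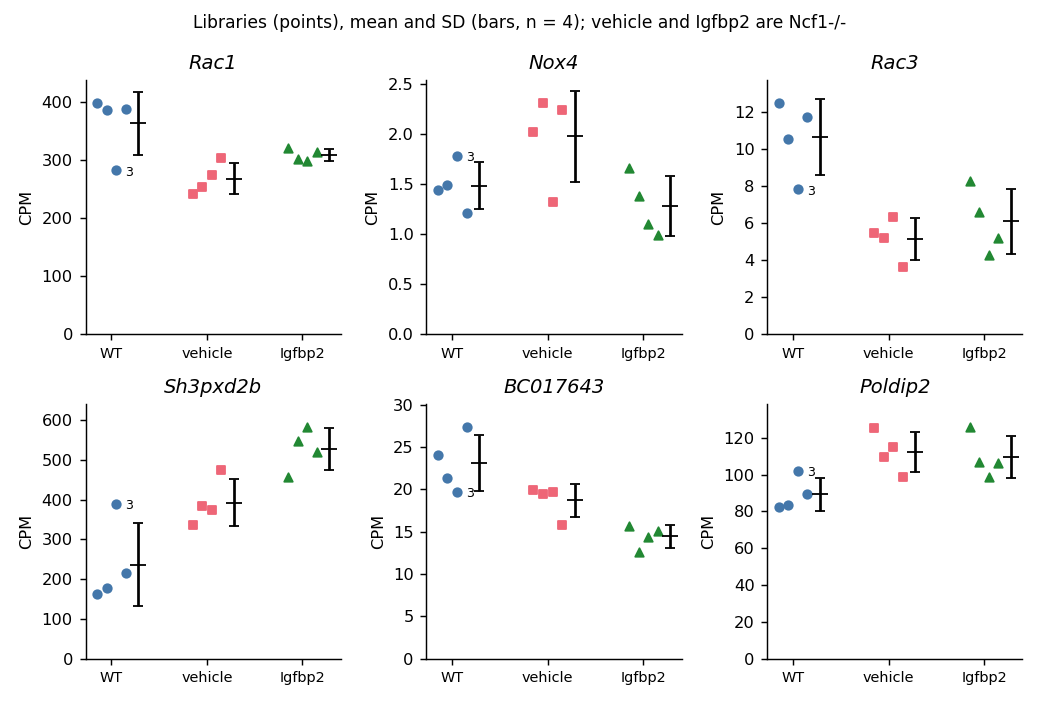
CPM (y axis, from 0) of 6 oxidase genes in each library of the groups (x axis), with the mean and SD of 4 libraries beside the points, and WT replicate 3 marked by its number. Rac1 and Rac3 are lower with vehicle than in most WT libraries, and WT replicate 3 lies on the side of the mutants for Rac1, Rac3, Sh3pxd2b and Poldip2.

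Genes of the wider oxidase family were measured beside the subunits. Of 13 such genes considered, 7 passed the filter, and 4 of these were called between vehicle and WT, 2 higher and 2 lower, against 57.2% of all genes tested. The third Rac gene, Rac3, which is known from neurons, was at 12.5, 10.6, 7.83 and 11.7 CPM in WT replicates 1 to 4 and at 5.49, 5.22, 6.36 and 3.62 CPM with vehicle. All WT libraries lay above all vehicle libraries, as for 51.2% of the genes tested, and Rac3 differed by −1.04 ± 0.22 on the log2 scale (SE, with edgeR adjusted p = 0.00135). With Igfbp2 it was at 8.31, 6.61, 4.30 and 5.20 CPM, still lower than WT (−0.80 ± 0.22, edgeR adjusted p = 0.00674) and not called against vehicle (0.24 ± 0.23, edgeR adjusted p = 0.466). Rac1 exceeded Rac3 by 16.0 times in WT, 24.6 times with vehicle and 24.1 times with Igfbp2 in mean TPM.
The podosome scaffold Sh3pxd2b (Tks4), related to the organiser Ncf1, was higher with vehicle than in WT, at 337 to 475 against 163 to 389 CPM (log2 fold change 0.73 ± 0.23, edgeR adjusted p = 0.0150). The value of 389 CPM was that of WT replicate 3, and without vehicle replicate 4 the difference was not called (0.59, edgeR adjusted p = 0.0562). With Igfbp2 Sh3pxd2b was at 458 to 582 CPM, above every WT library (1.15 ± 0.23, edgeR adjusted p = 0.000753), and 54.4% of the genes tested were as fully separated. Against vehicle it was not called (0.42 ± 0.23, edgeR adjusted p = 0.186), but it was in a fit of the Ncf1-/- libraries alone, without a block (0.39, edgeR adjusted p = 0.0172) or with one (0.39, edgeR adjusted p = 0.0149). Its relative Sh3pxd2a (Tks5) was higher with Igfbp2 than in WT (0.49 ± 0.14, edgeR adjusted p = 0.00850) and was not called in the other comparisons. On the TPM scale that call was lost (0.046 to 0.078, limma and Tukey adjusted p = 0.834 to 1), where the median of all genes also shifted by −0.25 to −0.43. The call of Sh3pxd2b against WT was lost by Tukey comparisons with vehicle (0.75, adjusted p = 0.427) and with Igfbp2 (0.70, adjusted p = 0.456).

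BC017643, now named Cybc1 and known as the chaperone that brings Cybb and Cyba to maturity, had its highest mean in WT and its lowest with Igfbp2. It was at 24.01, 21.4, 19.7 and 27.3 CPM in WT replicates 1 to 4, at 19.95, 19.4, 19.6 and 15.7 CPM with vehicle and at 15.7, 12.6, 14.4 and 15.1 CPM with Igfbp2. All Igfbp2 libraries lay below all others, as for 34% of the genes tested against vehicle and 54.4% against WT, while WT and vehicle overlapped. BC017643 changed by −0.30 ± 0.12 on the log2 scale between vehicle and WT (edgeR adjusted p = 0.0384). It changed by −0.37 ± 0.12 between Igfbp2 and vehicle (edgeR adjusted p = 0.0374) and by −0.67 ± 0.12 between Igfbp2 and WT (edgeR adjusted p = 0.000276). The first was not called without WT replicate 1, WT replicate 4 or vehicle replicate 4 (edgeR adjusted p = 0.0794, 0.0861 and 0.0679), nor with library totals (−0.12, edgeR adjusted p = 0.354). It was also lost without a filter (edgeR adjusted p = 0.0690) and in a fit of only these groups (edgeR adjusted p = 0.0794). On the TPM scale it was −0.15 to −0.18 (limma and Tukey adjusted p = 0.457 to 0.772). The difference to vehicle was not called when any of 6 Ncf1-/- libraries was left out, with edgeR adjusted p-values of up to 0.104, the highest without Igfbp2 replicate 2.
Poldip2, described as a Cyba and Nox4 partner, was at 82.5 to 102 CPM in WT and 98.8 to 125 CPM with vehicle (log2 fold change 0.33 ± 0.10, edgeR adjusted p = 0.0144). On the TPM scale Poldip2 was not called between vehicle and WT (0.30 to 0.32, limma and Tukey adjusted p = 0.0960 to 0.292). It was at 98.8 to 126 CPM with Igfbp2 (0.29 ± 0.10 against WT, edgeR adjusted p = 0.0237), a difference that was not called when any of WT replicates 1, 2 and 4, vehicle replicates 2 and 3 or Igfbp2 replicate 1 was left out (edgeR adjusted p = 0.0644 to 0.0919, the highest without WT replicate 4) and that turned negative in mean TPM (−0.24).

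The remaining catalytic and cytosolic genes were low. Nox1, the colon oxidase, was at 0.262 to 0.989 CPM over all libraries. Noxo1, the organiser of Nox1, was at 0.947 to 2.06 CPM in WT and 1.32 to 2.97 CPM with vehicle (log2 fold change 0.65 ± 0.29, edgeR adjusted p = 0.0728), and was called only where a library or the scaling was changed (without vehicle replicate 4, edgeR adjusted p = 0.0234, and without WT replicate 4, edgeR adjusted p = 0.0319). Nox1 was not called in any of the 3 comparisons, where its edgeR adjusted p-values were between 0.330 and 0.990. Noxa1, the activator of Nox1, was at 0 in all 12 libraries. Nox3 of the inner ear had at most 1 count and the dual oxidase Duox2 at most 2. Duox1 reached 4 counts and the maturation factor Duoxa2 1. Duoxa1, the maturation factor of Duox1, had 3 counts in all WT libraries together, 23 with vehicle and 7 with Igfbp2 (vehicle to WT ratio 7.69, exact counting interval 2.32 to 40.0, and exact permutation p = 0.0571 over libraries). In the plot of log2 fold changes the widest interval in the comparison of vehicle with WT is that of Nox1.

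**Figure D3:**
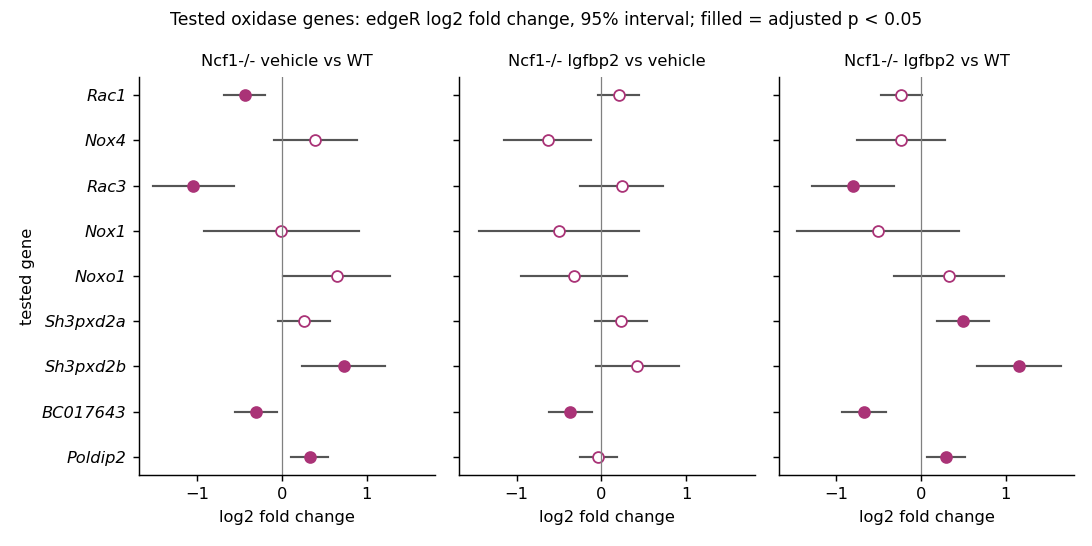
Log2 fold change (x axis) with its 95% interval for the 9 oxidase genes shown that passed the filter (y axis) in each of 3 comparisons by edgeR, with filled points where the adjusted p was under 0.05. Rac1 and Rac3 are lower with vehicle than in WT, and BC017643 is lower in all 3 comparisons.

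Genes that load, unload or hold Rac were measured as a group around the subunits. Of 36 such genes 32 were tested, and between vehicle and WT 16 were lower, 5 higher and 11 not called (21 called against a background of 57.2%). Their median log2 fold change was −0.33, against 0.02 over all genes tested. The GTPase-activating protein Chn2 (β2-chimaerin) fell by 3.98 on the log2 scale (SE 0.34, edgeR adjusted p = 8.93e-07), from 75.9 to 300 CPM in WT to 12.4 to 13.8 CPM. Elmo1, the partner of Dock-type exchange factors, was at 51.7 to 144 CPM in WT and 15.4 to 19.2 CPM with vehicle (−2.69 ± 0.25, edgeR adjusted p = 1.59e-06). The exchange factor Dock4 was at 70.7 to 134 and 23.9 to 29.9 CPM (−2.01 ± 0.19, edgeR adjusted p = 2.15e-06). In each of these genes WT replicate 3 was the lowest WT library and still lay above every vehicle library. The libraries of 51.2% of the genes tested were as fully separated in this comparison.
The exchange factor Vav3 rose, from 16.6 to 49.6 CPM to 87.7 to 131 CPM (1.94 ± 0.29, edgeR adjusted p = 7.39e-05). Racgap1, a GTPase-activating protein of dividing cells, rose from 33.01 to 65.4 CPM to 176 to 190 CPM (1.87 ± 0.19, edgeR adjusted p = 3.09e-06), and Dock5 rose from 0.773 to 2.55 CPM to 2.701 to 5.298 CPM (1.39 ± 0.31, edgeR adjusted p = 0.00197). The list thus held genes that activate and genes that inactivate Rac on either side. Astrocyte markers, led by Gfap, summed to 6724 to 12593 CPM in WT and 3072 to 3626 CPM with vehicle, neuron markers, led by Map2, to 599 to 772 and 485 to 550 CPM, and the oligodendrocyte markers moved as given above; their part in these differences was not tested.

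Between Igfbp2 and vehicle, 10 of the 32 Rac regulators were called, all 10 higher (background 14.2% higher and 10.7% lower), with a median log2 fold change of 0.24 against 0.04 over all genes tested. In a fit of the Ncf1-/- libraries alone 17 were called without a block and 16 with the replicate number as a block. Over all genes tested, 5809 were called without the block and 5423 with it, against 3923 in the fit of all libraries. The count for the list was 4 to 6 when any of 6 Ncf1-/- libraries was left out (vehicle replicates 1 to 3 and Igfbp2 replicates 2 to 4), lowest without vehicle replicate 2. Leaving out these same libraries called 2272 to 2980 of all genes tested, again lowest without vehicle replicate 2. Bcr, which holds both an exchange and a GTPase-activating domain, was at 54.8 to 74.7 CPM with vehicle and 102 to 127 CPM with Igfbp2 (0.82 ± 0.11, edgeR adjusted p = 0.000869), and at 104 to 130 CPM in WT. Chn2 rose to 23.1 to 27.96 CPM (0.99 ± 0.31, edgeR adjusted p = 0.0360) and the GDP-dissociation inhibitor Arhgdig to 1.18 to 2.77 CPM (1.08 ± 0.36, edgeR adjusted p = 0.0432). The calls of Chn2 and Arhgdig did not hold when single libraries were left out: every Ncf1-/- library ended that of Chn2 (edgeR adjusted p up to 0.103, without vehicle replicate 2), and 7 libraries that of Arhgdig (up to 0.131, without Igfbp2 replicate 1). With library totals 5 of the list were called, 3 higher and 2 lower, where 648 of all genes tested were higher and 5258 lower. On the TPM scale Bcr was not called (0.32 to 0.37, limma and Tukey adjusted p = 0.190 to 0.787), where the median of all genes also shifted by −0.30 to −0.43. Genes listed as endothelial and mural markers summed to 64.4 to 74.7 CPM with vehicle and 135 to 155 CPM with Igfbp2. The list was led by Cspg4, which is not confined to those cells. Of 8 listed markers tested 4 were called, all higher, and the markers had a median log2 fold change of 1.03. Their part in the result was not tested.

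Kinases and lipid enzymes that act on the subunits were described as a second group. Of 17 genes tested, 7 were lower and 1 higher with vehicle than in WT (background 28.2% lower and 28.9% higher), with a median log2 fold change of −0.10. Protein kinase C ζ (Prkcz) was at 17.4 to 55.5 CPM in WT and 7.05 to 8.48 CPM with vehicle (−2.32 ± 0.28, edgeR adjusted p = 1.43e-05). Prkca, a kinase that phosphorylates Ncf1 in phagocytes, was at 93.2 to 115 and 24.9 to 33.3 CPM (−1.90 ± 0.12, edgeR adjusted p = 9.29e-08), and Mapk3 (Erk1) at 84.8 to 134 and 75.2 to 84.2 CPM (−0.60 ± 0.13, edgeR adjusted p = 0.00113). The Rac effector kinase Pak1 rose from 22.7 to 36.9 CPM to 36.4 to 42.6 CPM (0.52 ± 0.13, edgeR adjusted p = 0.00426).
With Igfbp2, 6 of the 17 rose against vehicle and 0 fell by edgeR (background 14.2% higher and 10.7% lower). They included Prkcb (140 to 165 against 77.8 to 112 CPM, 0.75 ± 0.14, edgeR adjusted p = 0.00350), Prkca (0.48 ± 0.12, edgeR adjusted p = 0.0125) and Src (0.37 ± 0.10, edgeR adjusted p = 0.0201). The count fell to 1 without vehicle replicate 2 or 3, to 2 without vehicle replicate 1 or Igfbp2 replicate 2, and to 3 without Igfbp2 replicate 3, Igfbp2 replicate 4 or WT replicate 4. Over all genes tested, 2272 and 2656 were called without vehicle replicates 2 and 3, 4215 without WT replicate 4 and 3923 with all libraries. Prkca missed the threshold without vehicle replicates 2 or 3 (edgeR adjusted p = 0.0530 and 0.0621), and Src without vehicle replicates 1, 2 or 3 or Igfbp2 replicate 2 (up to 0.0781). On the TPM scale Prkcb was not called (0.26 to 0.27, limma and Tukey adjusted p = 0.299 to 0.850). In mean TPM Prkca turned lower with Igfbp2 (−0.12), and with library totals 3 of the 17 were called, 1 higher and 2 lower.

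Genes in or beside the pathways that supply NADPH, the substrate of the oxidase, formed the last group, and not all of them make NADPH. All 16 were tested, and 6 were higher and 2 lower with vehicle than in WT (background 28.9% higher and 28.2% lower), with a median log2 fold change of 0.25. Mitochondrial one-carbon enzymes were among those that rose, Mthfd1l from 10.6 to 20.4 CPM to 35.8 to 50.2 CPM (1.68 ± 0.20, edgeR adjusted p = 1.25e-05) and Mthfd2 from 6.02 to 18.04 CPM to 18.1 to 31.0 CPM (1.19 ± 0.28, edgeR adjusted p = 0.00263). The mitochondrial isocitrate dehydrogenase Idh2 rose from 45.9 to 80.0 CPM to 124 to 138 CPM (1.05 ± 0.15, edgeR adjusted p = 4.67e-05). The mitochondrial NAD kinase Nadk2 (−0.52 ± 0.15, edgeR adjusted p = 0.00961) and the transhydrogenase Nnt (−0.24 ± 0.09, edgeR adjusted p = 0.0264) fell, the latter not without vehicle replicate 1 (edgeR adjusted p = 0.0681) and not with library totals (−0.06, edgeR adjusted p = 0.575). Nadk2 was not called with library totals (−0.34, edgeR adjusted p = 0.0569) or by Tukey comparisons on TPM (−0.68, adjusted p = 0.142). With library totals 10 of the list were called higher and 0 lower, where the median of all genes also shifted by 0.19.
Between Igfbp2 and vehicle 5 of 16 rose and 0 fell by edgeR (background 14.2% higher and 10.7% lower). In a fit of the Ncf1-/- libraries alone 11 were called, 10 higher and 1 lower, with or without a block, and with library totals 2 were called higher and 3 lower. All genes tested had 3034 higher and 2775 lower without the block, 2927 and 2496 with it, and 648 and 5258 with library totals. Cytosolic malic enzyme Me1 was at 207 to 245 CPM against 124 to 149 CPM (0.71 ± 0.12, edgeR adjusted p = 0.00251). Glucose-6-phosphate dehydrogenase, G6pdx, whose gene is on chromosome X, was at 94.5 to 105 CPM against 65.1 to 71.2 CPM (0.57 ± 0.07, edgeR adjusted p = 0.000677), while WT libraries lay between 60.1 and 70.6 CPM. On the TPM scale neither was called, Me1 at 0.23 to 0.24 (limma and Tukey adjusted p = 0.246 to 0.618) and G6pdx at 0.072 to 0.089 (adjusted p = 0.738 to 1 by the same limma and Tukey tests). The sex-linked genes separate the same libraries, and their part in this result was not tested. Me3 (0.40 ± 0.13, edgeR adjusted p = 0.0425) was not called when any 1 of the 8 Ncf1-/- libraries or WT replicate 4 was left out, and the count of called genes was then 2 to 7, lowest without vehicle replicate 1, 2 or 3 and 3 without any 1 of the other 5 Ncf1-/- libraries. Over all genes tested, leaving out 1 Ncf1-/- library called 2272 to 3822, against 3923 with all libraries.

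**Figure D4:**
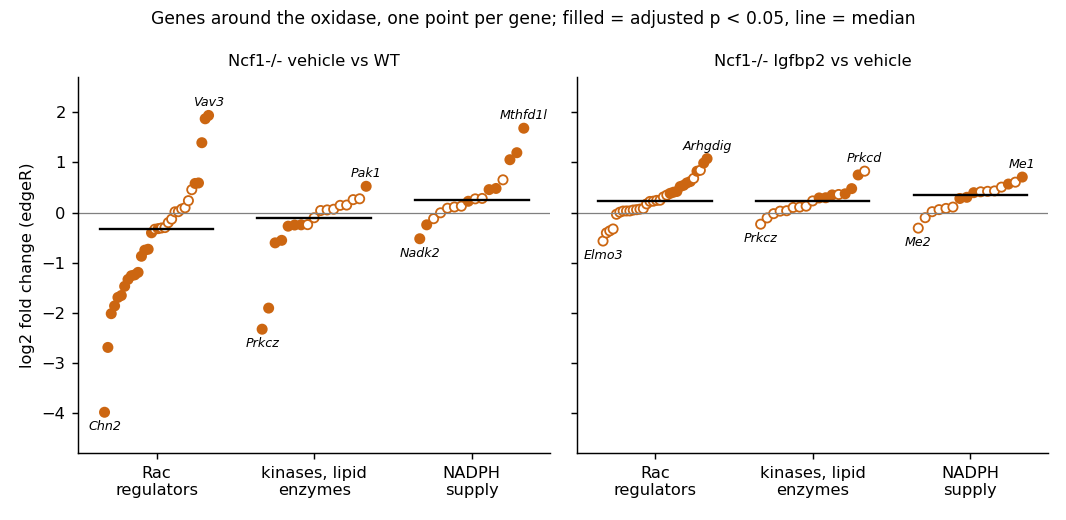
Log2 fold change (y axis) by edgeR of every tested gene of 3 groups around the oxidase (x axis), sorted within each group, for vehicle against WT (left) and Igfbp2 against vehicle (right), with filled points at an adjusted p under 0.05 and a line at the median. The Rac regulators run from −3.98 for Chn2 to 1.94 for Vav3 on the left, and all called genes on the right are higher.

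The genes on either side of Ncf1 on chromosome 5 were measured as the surroundings of the mutated gene. Of the 10 protein-coding genes to each side, 17 were tested, and 11 were called between vehicle and WT, 3 higher and 8 lower, a count close to the background of 57.2%. Rcc1l (listed as Wbscr16), at 43279 bases from Ncf1, rose by 0.79 ± 0.10 (edgeR adjusted p = 2.34e-05) and the replication factor Rfc2, at 351741 bases, by 0.94 ± 0.08 (edgeR adjusted p = 1.38e-06). Gtf2ird1, at 128031 bases, rose by 0.23 ± 0.07 (edgeR adjusted p = 0.0116), but not without vehicle replicate 2 (edgeR adjusted p = 0.0641). Castor2 (listed as Gatsl2), at 75710 bases, had a log2 fold change of −1.40 ± 0.11 (edgeR adjusted p = 3.74e-07). That of the microtubule-binding gene Clip2, at 259758 bases, was −1.25 ± 0.11 (edgeR adjusted p = 8.44e-07), and that of Syna, at 328521 bases and with at most 1.295 CPM in any library, was −1.30 ± 0.33 (edgeR adjusted p = 0.00430). Genes that rose and genes that fell lay next to each other on both sides. Gtf2ird2, which overlaps Ncf1, was lower by −0.34 ± 0.11 (edgeR adjusted p = 0.0177).

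**Figure D5:**
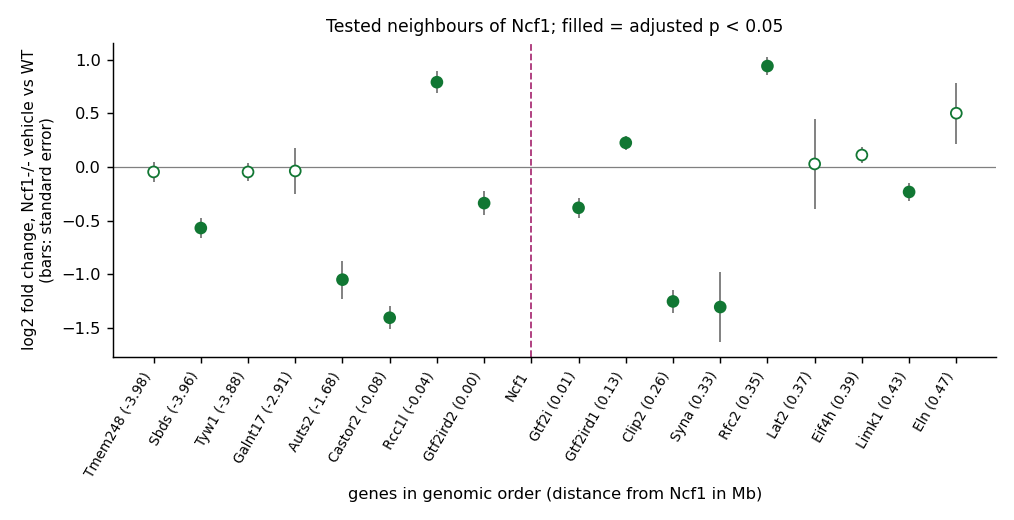
Log2 fold change between vehicle-treated Ncf1-/- and WT cells (y axis, bars are the standard error) for the 17 tested neighbours of Ncf1 in genomic order (x axis, distance from Ncf1 in Mb, not to scale), with filled points at an edgeR adjusted p under 0.05. Called genes lie on both sides of Ncf1 and of 0, from −1.40 for Castor2 to 0.94 for Rfc2.

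Rac1 was the only subunit called by the edgeR fit of the 15706 filtered genes, and the genes whose log2 CPM followed it most closely over the 12 libraries were Entpd5 (Pearson r = 0.970), Nfil3 (r = 0.968) and Ppp2r2a (r = 0.962). These libraries share the group differences and the position of WT replicate 3, and the values are a description. Entpd5, a nucleotidase of the endoplasmic reticulum, was at 72.2, 78.5, 40.6 and 87.1 CPM in WT replicates 1 to 4, at 29.4 to 38.3 CPM with vehicle and at 45.6 to 53.5 CPM with Igfbp2. Nfil3, a bZIP transcription factor, was at 24.3, 22.7, 8.83 and 26.3 CPM in WT replicates 1 to 4, and at 5.71 to 7.91 and 8.53 to 11.3 CPM in the mutant groups. Ppp2r2a, a regulatory subunit of protein phosphatase 2A, was at 129, 121, 85.2 and 116 CPM in WT and at 78.5 to 91.6 and 87.7 to 96.8 CPM in the mutants. As for Rac1, the value of WT replicate 3 was the lowest of its group in each.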

How the data were processed

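Total RNA of 12 cultures, depleted of ribosomal RNA, was sequenced by the study. The authors mapped reads with Bowtie2 and quantified them with RSEM on GRCm38, per the labels' processing notes, whose versions are not given in the sources used here, and deposited expected counts per gene without normalization. The deposited TPM come from the same RSEM runs by the authors, and the deposited FPKM was not used. The authors' merged table holds a score equal to TPM times the number of transcripts (for 100% of 257083 values above 0, within 1%), and was used for gene symbols only. Positions are from GENCODE M21 (GRCm38) and promoters from RefSeq.

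Expected counts were rounded, and 15706 genes passing filterByExpr were fitted together in edgeR 4.0.16 (limma 3.58.1, R 4.3.3) with TMM factors, a mean per group and no covariate. Adjusted p-values are Benjamini-Hochberg over all genes tested, called under 0.05. Intervals are at 95%. For subunits below the filter, CPM was compared by exact permutation, and summed counts by an exact conditional Poisson interval. Log2 CPM for correlations used a prior count of 2. On simulated data edgeR was checked before use.

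The members and lists were chosen with earlier results of these data known. A gene of the family is not reported here. Named genes are the subunits, their family, the 3 called genes that rose and the 3 that fell most in each of 3 lists (mean of at least 1 CPM) and among the neighbours of Ncf1, the 3 genes most correlated with a called subunit, the highest gene of each marker list, and sex-linked genes. Endothelial and mural markers, led by Cspg4, summed to 84.2 to 149, 64.4 to 74.7 and 135 to 155 CPM in WT, vehicle and Igfbp2 libraries, and oligodendrocyte markers, led by Olig1, to 2147 to 2229 CPM with Igfbp2. Alternatives were DESeq2 1.42.0, library totals, other filters, only the groups compared, ANOVA with Tukey comparisons and limma on TPM, a block, and each library left out. The methods pair vehicle and Igfbp2 cultures by animal, but the library titles do not give the pairs. The block therefore matched libraries by their order within each group, called the replicate number here. With group means removed, same-numbered libraries correlated at −0.0673 to 0.0328 over 4 pairs and others at −0.248 to 0.257 over 12 pairs. The closest pair of replicates, vehicle 2 and 3, had a chi-square of 4.72 per degree of freedom, so no library was counted as a repeat.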

Additional observations from a re-analysis of the deposited data

Results flagged for a closer look

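In groups of 4 libraries, a library was listed when its gap to the nearest other exceeded Dixon's critical value as a share of the group's range. This held in 23 of 176 groups over 62 genes, where chance gives about 1 in 20. Among the subunits, WT replicate 3 stood apart for Rac1 at 282 CPM. The others rest on a few counts, Ncf4 in WT replicate 3 (0.0287 CPM) and vehicle replicate 1 (0.0871 CPM), Cybb in Igfbp2 replicate 4 (0.0491 CPM) and Rac2 in vehicle replicate 2 (0.216 CPM).

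In the wider family these were Duox1 in Igfbp2 replicate 2 (0 CPM), Duox2 in WT replicate 4 (0.111 CPM), Duoxa1 in WT replicate 3 (0.0860 CPM) and BC017643 in vehicle replicate 4 (15.7 CPM). Mapk3 stood apart in WT replicate 3 (84.8 CPM) and Igfbp2 replicate 1 (112 CPM). Mthfd1l did so in WT replicate 4 (20.4 CPM), Mthfd2 in Igfbp2 replicate 3 (43.1 CPM), Me3 in vehicle replicate 1 (22.01 CPM) and Wbscr16 in vehicle replicate 2 (23.3 CPM). Of the markers, Cd14 stood apart in Igfbp2 replicate 3 (5.98 CPM), Olig1 in Igfbp2 replicate 4 (1251 CPM) and Map2 in vehicle replicate 4 (525 CPM). Of the sex-linked genes, Ddx3y did so in Igfbp2 replicate 2 (1.26 CPM), Eif2s3y in vehicle replicate 2 (26.6 CPM), Uty in WT replicate 4 (2.06 CPM) and Xist in WT replicate 4 (291 CPM) and Igfbp2 replicate 1 (166 CPM).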

How the results depend on the processing

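The other settings that moved a count of calls by over 1.5 times or turned a direction are given here, and the cause was not tested. Between vehicle and WT, library totals called 0 subunits and Tukey comparisons on TPM called 0 subunits, 2 family genes, 10 Rac regulators, 3 kinases, 2 NADPH supply genes and 7 neighbours of Ncf1, and limma on TPM with either pseudocount (1 or 0.1) called 4 kinases and 7 neighbours. Of all genes tested, library totals called 9183 of 15706, Tukey comparisons 4329 of 27880, and limma 6659 (pseudocount 1) or 6541 (pseudocount 0.1) of 15706. Leaving out 1 library called 1 subunit, 3 to 4 family genes, 20 to 23 Rac regulators, 6 to 9 kinases, 7 to 9 NADPH supply genes and 9 to 12 neighbours. With 1 library left out, 8145 to 9324 of all genes tested were called.

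Between Igfbp2 and vehicle, library totals called 1 subunit, 2 family genes, 5 Rac regulators and 3 kinases, and the fit of only these groups called 1, 2 and 17 of the first 3 sets and 11 NADPH supply genes, as did the fit without WT replicates 3 and 4, chosen after seeing the data. Limma called 1 subunit, 2 family genes, 3 (pseudocount 1) or 4 (pseudocount 0.1) Rac regulators, 3 kinases and 3 NADPH supply genes, and the Tukey comparisons 2 family genes, 1 Rac regulator, 0 kinases and 0 NADPH supply genes. Without a filter 0 family genes and 3 NADPH supply genes were called, and with a mean of at least 5 CPM 3 kinases and 3 NADPH supply genes. The replicate block, which pairs vehicle and Igfbp2 libraries by their order within each group and also leaves out WT, called 0 subunits, 2 family genes, 16 Rac regulators and 11 NADPH supply genes. That order is not known to match animals. Leaving out 1 library gave 0 to 1, 0 to 2, 4 to 11, 1 to 7 and 2 to 7 calls in the 5 sets, and 2272 to 4788 over all genes tested. Of all genes, library totals called 648 higher and 5258 lower, only these groups 3034 and 2775, and the block 2927 and 2496. Without WT replicates 3 and 4 these were 3121 and 2873. Limma called 200 and 6154 (pseudocount 1) or 165 and 6354 (pseudocount 0.1), and Tukey comparisons 64 and 2085. Without a filter 1903 of 27697 were higher and 1315 lower, and with at least 5 CPM 1424 and 1345 of 11170. No paired analysis was possible against WT because those cultures came from other animals.

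Between Igfbp2 and WT, 1 subunit, Rac1, was called lower with library totals, with at least 5 CPM, by Tukey and without WT replicates 3 and 4, and 2 were called by limma; without a filter the 1 called was Cyba, higher. Tukey called 2 family genes, 11 Rac regulators, 5 kinases and 2 NADPH supply genes, and limma with pseudocount 1 called 3 family genes. Leaving out 1 library gave 0 to 1, 4 to 5, 19 to 24, 8 to 10 and 9 to 12, and 8931 to 10032 over all genes tested. Of all genes, library totals called 9673 of 15706, Tukey comparisons 5592 of 27880 and limma 8859 (pseudocount 1) or 9047 (pseudocount 0.1) of 15706. Without a filter 9912 of 27697 were called, and with at least 5 CPM 7450 of 11170. Without WT replicates 3 and 4 the number was 10292 of 15706.

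Directions turned mostly between Igfbp2 and vehicle, on the log2 scale. With library totals these were Rac1 (−0.072), Rac3 (−0.039) and Sh3pxd2a (−0.041). By Tukey, limma with 1 and limma with 0.1 they were Rac1 (−0.30, −0.29, −0.29), Rac3 (−0.27, −0.25, −0.30), Sh3pxd2a (−0.23, −0.16, −0.23), Sh3pxd2b (−0.049, −0.056, −0.058) and Prkca (−0.12, −0.091, −0.11), and for Src by limma −0.015 and −0.017. Poldip2 ranged from −0.11 to 0.022 with 1 library left out, and against WT turned to −0.24, −0.22 and −0.23. Between vehicle and WT, Nox1 turned to 0.17 with library totals, 0.0085 without a filter and 0.014 with only these groups, and ranged from −0.35 to 0.21 with 1 library left out. Mean Rac1 was 297 CPM with vehicle and 283 CPM with Igfbp2 under library totals, against 268 and 308 CPM with TMM factors.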
